A study of Mus musculus with 2 samples.

Results

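The aryl hydrocarbon receptor (AHR) genes considered here are Ahr, its partner Arnt, its repressor Ahrr, and the target genes Tiparp, Cyp1b1 and Cyp1a1. They were chosen by name, as the 6 rows of the deposited gene table that carry these symbols, out of 55246 loci in all. The table comes from RNA sequencing of regulatory T cells (Treg cells), the suppressive CD4 T cell lineage that needs Foxp3, from the lamina propria, the connective tissue under the epithelium, of the colon of female mice. There was 1 library from wild-type mice (WT) and 1 from mice labelled Exon2KO, whose Foxp3 allele lacks exon 2. The labels give no strain, age, treatment or sorting scheme, and do not say whether a library held RNA of 1 mouse or of several. With 1 library per genotype there was no replicate, so no difference below could be set against a spread between samples, and every interval covers counting error only.

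AHR is a ligand-activated transcription factor of the bHLH-PAS family. Without ligand it sits in the cytosol in a complex with the chaperone HSP90, and with ligand (dietary indoles, tryptophan metabolites of host and microbes, dioxins) it enters the nucleus, pairs with ARNT and binds DNA at a short element with the core GCGTG. Its classical targets include the cytochrome P450 enzymes CYP1A1 and CYP1B1, which clear the ligands, and 2 feedback inhibitors, the repressor AHRR and the mono-ADP-ribosyltransferase TIPARP. In the gut, AHR is known from intestinal Treg cells, Th17 cells, innate lymphoid cells and epithelium.

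The sequences before the start sites of the 4 target and feedback genes are shown because the AHR element is defined by its letters. They are the 250 bases upstream of the RefSeq start site on GRCm38.p6, 5′ to 3′ on the strand of the gene. The capitals mark each GCGTG, or CACGC where the core lies on the other strand. For Cyp1a1 the start site (57697613) lies inside the deposited gene span, which starts at 57687928, so all bases shown lie within that span. For Tiparp the last bases shown lie within the deposited span, which starts at 65528410.
Ahrr, chr13:74292332-74292581, minus strand: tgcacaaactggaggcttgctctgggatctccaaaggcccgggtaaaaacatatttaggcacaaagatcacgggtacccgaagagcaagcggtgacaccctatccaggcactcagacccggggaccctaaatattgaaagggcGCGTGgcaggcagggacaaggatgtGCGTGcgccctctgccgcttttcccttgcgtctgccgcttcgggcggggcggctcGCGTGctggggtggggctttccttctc
Cyp1a1, chr9:57697363-57697612, plus strand: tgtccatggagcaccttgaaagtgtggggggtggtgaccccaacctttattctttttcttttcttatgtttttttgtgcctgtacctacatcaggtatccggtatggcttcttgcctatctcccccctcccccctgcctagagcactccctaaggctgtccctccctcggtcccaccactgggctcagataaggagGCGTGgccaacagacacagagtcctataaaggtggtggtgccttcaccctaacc
Cyp1b1, chr17:79715062-79715311, minus strand: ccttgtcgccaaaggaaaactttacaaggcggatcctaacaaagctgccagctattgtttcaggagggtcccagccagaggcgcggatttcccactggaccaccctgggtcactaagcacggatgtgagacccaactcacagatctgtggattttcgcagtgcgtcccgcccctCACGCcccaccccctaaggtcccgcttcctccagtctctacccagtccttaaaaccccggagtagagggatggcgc
Tiparp, chr3:65528197-65528446, plus strand: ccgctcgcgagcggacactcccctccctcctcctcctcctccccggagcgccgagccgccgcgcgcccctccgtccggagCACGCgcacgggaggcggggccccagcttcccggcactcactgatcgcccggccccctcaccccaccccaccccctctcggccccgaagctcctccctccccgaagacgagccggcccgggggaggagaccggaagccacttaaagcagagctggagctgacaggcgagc

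GCGTG was searched on both strands in a window of 300 bases, from 250 before to 50 after the start site. It was found in the windows of all 5 members that have an entry in the table, which are these 4 and Arnt, and 32.4% of the 32851 windows of all genes hold it. Ahrr had 3 matches, starting 107, 82 and 27 bases before the start site, and 3.91% of all windows hold 3 or more. The match of Ahrr nearest to the start site also had the longer form TNGCGTG, which contains the core and is found in 5.07% of all windows. Cyp1a1, Cyp1b1, Tiparp and Arnt had 1 match each in the window and none of the longer form. Sequence further from the start site was not searched, so AHR elements there are not counted for any gene. The related core ACGTG, to which dimers of ARNT with hypoxia-inducible factors bind, was in none of the 5 windows and in 19.6% of all windows. A match describes the letters only. GCGTG holds a CpG, and whether windows rich in CpG match more often was not tested. The window of Tiparp held 34 CpG and that of Cyp1a1 held 4, with 1 match each.

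Both libraries had a similar depth, at 16281133 reads assigned to genes for WT and 15412425 for Exon2KO. Reads were put on a common scale with TMM, and levels are CPM (counts relative to a scaled library of 1000000 reads) with exact 95% Poisson intervals. Foxp3, the altered gene, had 6991 reads in WT and 20946 in Exon2KO, or 445 and 1310 CPM, which does not test the deletion of 1 exon because reads were counted over the whole gene. The marker list for Treg and CD4 T cells was present in full, with 8 of 8 genes above 10 reads and summed levels of 8635 CPM in WT and 12538 in Exon2KO. Most of that gap lay in Ctla4 (5056 and 8270 CPM) and in Foxp3 itself, while the median log2 ratio of the 8 was 0.10 and Trac was at -0.44. Markers of other cells were present too. The B and plasma cell list summed to 34250 and 28263 CPM and the epithelial list to 94.3 and 468 CPM. For bulk RNA like this, fewer cells of a type and less RNA per cell cannot be told apart.

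The receptor itself was a gene of moderate level and was higher in the Exon2KO library. Ahr (ENSMUSG00000019256, chromosome 12, 35497974 to 35535038, minus strand, GRCm38) had 329 reads in WT and 467 in Exon2KO. In WT its level was 20.96 CPM (18.8 to 23.4), in Exon2KO 29.2 CPM (26.6 to 32.0), and the 2 counting intervals did not overlap. The ratio of Exon2KO over WT was 1.39 (95% interval 1.21 to 1.61), a log2 ratio of 0.48 with a prior count of 2. Among 17363 genes whose reads in WT and Exon2KO came to 10 or more together, 38.7% lay at least as far from 0 on the log2 scale, and among those with 100 or more reads 25.03% did. The first 618 bases of Ahr overlap Gm48236, a long non-coding RNA gene on the opposite strand with 408 and 573 reads and a ratio of 1.38 (1.21 to 1.57). Whether counting used strand is not given in the sources used here, so reads in the shared stretch are uncertain for both.

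ARNT, the partner that AHR needs to bind DNA and that it shares with hypoxia-inducible factors, was close to even between the libraries. Arnt (ENSMUSG00000015522, chromosome 3, 95434388 to 95497240, plus strand) had 768 reads in WT and 897 in Exon2KO, or 48.9 CPM (45.5 to 52.5) and 56.1 CPM (52.5 to 59.9). The ratio was 1.15 (1.04 to 1.26), and 66.9% of the genes tested, or 57.1% of those with 100 or more reads, lay at least as far from 0. A processed pseudogene, Gm42672, with 42 and 27 reads, lies within Arnt on the same strand. Set per gene length, as FPKM in the deposited table, Arnt was at 6.08 in WT and 7.04 in Exon2KO and Ahr at 3.38 and 4.76. The FPKM of Arnt was thus 1.80 times that of Ahr in WT and 1.48 times in Exon2KO. The Ahr to Arnt read ratio does not depend on library scaling, and it was 1.22 times as high in Exon2KO as in WT (exact conditional interval 1.02 to 1.45).

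TIPARP ADP-ribosylates AHR and dampens its activity, and its gene was by far the most abundant of the 6. Tiparp (ENSMUSG00000034640, chromosome 3, 65528410 to 65555518, plus strand) had 2318 reads in WT and 2786 in Exon2KO. Its FPKM in WT was 33.7 (32.4 to 35.1) and in Exon2KO 40.2 (38.7 to 41.7), above those of 89.7% and 91.5% of the protein-coding genes with reads in each library. Ahr stood above 56.9% and 62.7% of them by the same measure. The ratio of Tiparp between the libraries was 1.18 (1.12 to 1.25), a log2 ratio of 0.24, and 61.5% of the genes tested, or 50.4% of those with 100 or more reads, lay at least as far from 0. Relative to Ahr the reads of Tiparp were lower in Exon2KO, at 0.847 times the WT value (0.725 to 0.988). At its start Tiparp shares 970 bases with 4931440P22Rik, a transcribed pseudogene on the opposite strand with 103 and 143 reads.

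AHRR competes with AHR for ARNT and represses the target genes, and it was present at a low level. Ahrr (ENSMUSG00000021575, chromosome 13, 74211118 to 74292331, minus strand) had 57 reads in WT and 67 in Exon2KO, or 3.63 CPM (2.75 to 4.71) and 4.19 CPM (3.25 to 5.32). The ratio was 1.15 (0.798 to 1.67), so no difference could be detected with this many reads. By FPKM, at 0.383 and 0.446, Ahrr stood above 26.6% and 27.7% of the protein-coding genes with reads.

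The 2 cytochrome P450 genes were at or near the limit of detection. Cyp1b1 (ENSMUSG00000024087, chromosome 17, 79706953 to 79715041, minus strand as deposited) had 6 reads in WT and 10 in Exon2KO. Its level was 0.382 CPM (0.140 to 0.832) and 0.625 CPM (0.2999 to 1.15), and the ratio of 1.64 had an interval of 0.539 to 5.48, which leaves its direction undetermined. Cyp1a1 (ENSMUSG00000032315, chromosome 9, 57687928 to 57703824, plus strand) had 8 reads in Exon2KO and 0 in WT. The level in Exon2KO was 0.5004 CPM (0.216 to 0.986), and the 0 reads in WT allow up to 0.191 CPM by the rule of 3 reads and 0.235 CPM by the exact Poisson interval, so the 2 intervals overlapped. Computed against 3 reads, and with the 8 reads taken as they stand, Cyp1a1 was at least 2.62-fold higher in Exon2KO. With the counting error of the 8 reads included, the lower 95% limit of the ratio was 1.68. With 8 reads in all, it did not reach the minimum of 10 reads for the comparison across genes.

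Epithelial and endothelial cells are known sites of CYP1A1, and some of their markers moved with it. Of the 12 epithelial markers, 9 were at least 2-fold higher and none lower in Exon2KO, and the summed level was 4.97 times as high. Fabp2, an enterocyte gene, went from 0 to 169 reads, and Epcam was at 782 and 609 reads. For endothelium 4 of 8 markers were at least 2-fold higher and none lower, among them Cdh5 with 0 and 15 reads, while Pecam1 with 917 and 834 reads held the summed level at 65.6 and 66.6 CPM. The part of these cells in the 8 reads of Cyp1a1 was not tested.

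**Figure D1:**
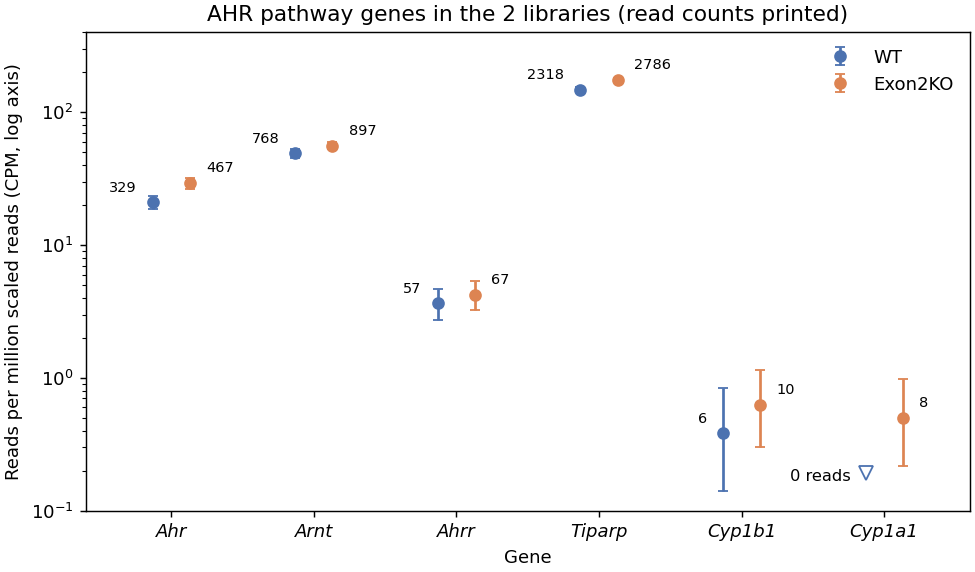
Level of each of the 6 AHR genes in the WT and Exon2KO libraries, in CPM on a log axis, with exact 95% Poisson intervals and the read counts printed beside the points. The open triangle marks the level of 3 reads for Cyp1a1 in WT, which had 0 reads; Tiparp lies highest, and Ahr and Tiparp are the genes whose intervals do not overlap.

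Across the genes tested, 17.5% differed by at least 2-fold in either direction, 9.38% higher and 8.14% lower in Exon2KO. Of the 6 AHR genes, 5 passed the read minimum and 0 of these differed by 2-fold. Their log2 ratios ran from 0.20 (Arnt) to 0.56 (Cyp1b1), with a median of 0.24 beside 0.0035 for all genes tested (interquartile range -0.33 to 0.35). All 5 ratios were above 0, as were those of 50.3% of all genes tested, and for Ahrr and Cyp1b1 the interval included 0. Relative to Cd3e, a T cell receptor subunit gene with 5154 and 5262 reads, Ahr was 1.39 times as high in Exon2KO (1.20 to 1.61). Tiparp was 1.18 times as high (1.10 to 1.26) and Arnt 1.14 times (1.03 to 1.27). Cd3e itself had a ratio of 1.00, so these values largely repeat the scaled ratios and are no separate support. Other T cell genes would give other values, since the ratio was 1.15 for Cd4 and 0.736 for Trac. Of the 6 AHR genes, 0 had an adjusted p-value below 0.05 in the authors' deposited table, against 4.58% of all 22447 genes with one. The lowest there was 0.159 for Cyp1a1, the 1 member with an unadjusted p-value below 0.05. For Ahr, the log2 fold change in the authors' deposited table was 0.48 and the adjusted p-value 0.81. Those p-values rest on 1 library per genotype and therefore on an assumed spread.

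**Figure D2:**
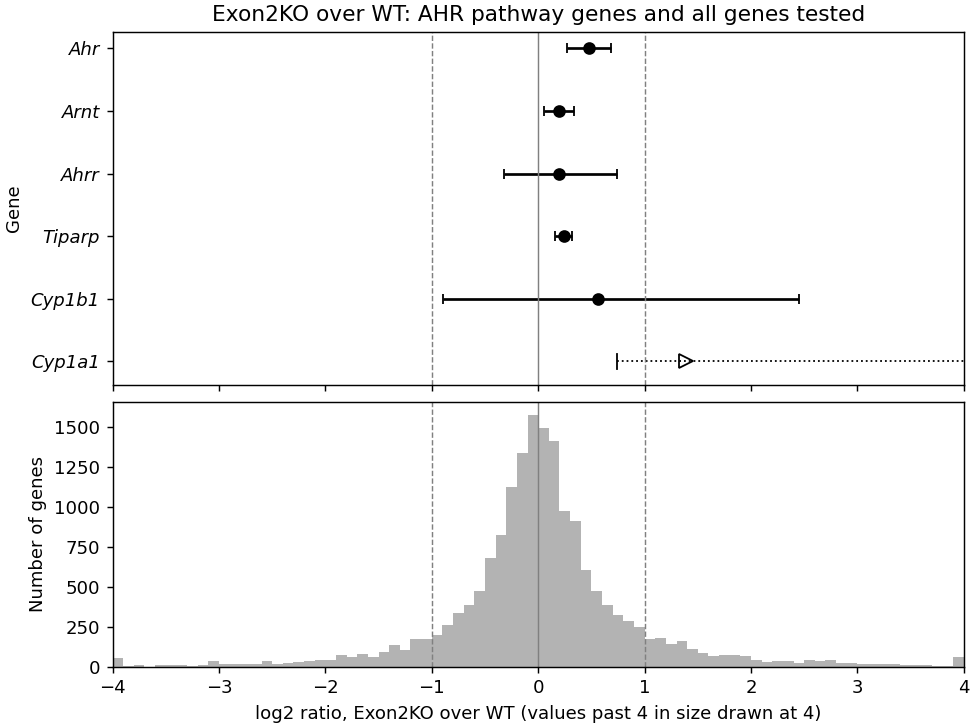
Upper panel, log2 ratio of Exon2KO over WT for the 6 AHR genes with 95% counting intervals, where for Cyp1a1 the dotted line starts at the lower 95% limit (0.74) and has no upper limit, and the open arrowhead marks the ratio of its 8 reads against 3 reads (1.39). Lower panel, the same ratio for the 17363 genes tested in bins of 0.1, with dashed lines at a 2-fold difference; the 5 AHR genes with a ratio lie between 0.20 and 0.56.

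Genes whose pair of FPKM values lay nearest to those of a member were sought among 7890 protein-coding genes that had 100 reads or more in WT and in Exon2KO, by Euclidean distance of log2 FPKM over the 2 libraries. Nearest to Ahr were Ctps, which encodes CTP synthase (3.33 and 4.76 FPKM, distance 0.025), Med1, a Mediator subunit (3.46 and 4.80, 0.034), and Slc25a44 (3.49 and 4.71, 0.048). For Tiparp they were Dxo, Ndufb8 and Elof1, and for Arnt they were Trmt6, Jmy and Virma. With 2 libraries such likeness says only that level and ratio were alike.

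Genes of the cytosolic AHR complex and of its transport differed by less than 2-fold. This list has 6 genes, among them the HSP90 genes, the co-chaperone gene Ptges3, the kinase gene Src and the exportin gene Xpo1. The median log2 ratio of the 6 was -0.16. Hsp90aa1 was at 1360 CPM in WT and 1373 in Exon2KO, and Hsp90ab1 at 2605 and 2037 CPM, 1.28-fold lower (1.26 to 1.297).

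Among 16 relatives of AHR and ARNT and their coactivators, 9 passed the read minimum, with a median log2 ratio of 0.12, and 1 differed by 2-fold. That gene was Epas1, which encodes the hypoxia-inducible factor HIF-2α, another partner of ARNT. It had 1056 WT reads against 290 from Exon2KO, 3.71-fold lower (3.25 to 4.24). Hif1a, whose product pairs with ARNT in hypoxia, was at 388 and 422 CPM, a ratio of 1.09 (1.05 to 1.13), and was among the 2 genes of the list with the most reads, with the clock gene Arntl (83.1 and 119 CPM, 1.43, 1.33 to 1.53). Per length, the FPKM of Hif1a was 19.3 times that of Ahr in WT and 15.1 times in Exon2KO. Arnt2, a paralog of Arnt, was at 13.9 and 23.0 CPM, and its ratio of 1.66 (1.40 to 1.97) was above that of Arnt.

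Of 15 further genes of the classical AHR battery, the detoxifying enzymes and other genes that AHR ligands induce in liver and other tissues, 9 had fewer than 10 reads and 5 of these had none in either library. Cyp1a2, the neighbour and closest relative of Cyp1a1, was one of those 5. The 6 that passed had a median log2 ratio of 0.03, with 1 at least 2-fold higher and 0 lower. Nqo1, a quinone reductase gene that NRF2 also induces, was counted at 21 reads in WT and 59 in Exon2KO, with a ratio of 2.76 (1.65 to 4.78). Nfe2l2, which encodes NRF2, was at 56.8 and 53.9 CPM, and Bax, with the most reads, at 107 and 117 CPM. Gsta1, a glutathione transferase gene, had 0 and 8 reads, the same counts as Cyp1a1. The part of epithelial cells in the reads of Nqo1 and Gsta1 was not tested.

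Genes for enzymes and carriers that handle tryptophan and its products, some of which are AHR ligands, differed in both directions. Of 18 genes, 12 passed the read minimum, 3 were at least 2-fold higher and 2 lower, and the median log2 ratio was -0.11. Kmo, kynurenine 3-monooxygenase, which converts kynurenine, stood at 30 reads in WT and 144 in Exon2KO, and its ratio was 4.71 (3.16 to 7.24). Maoa, monoamine oxidase A, had 14 and 141 reads, a ratio of 9.89 (5.70 to 18.5), and Tph1, which starts serotonin synthesis, had 12 and 61 reads (4.99, 2.66 to 10.2). Ido1, which starts the kynurenine route, was low, with 16 and 6 reads (2.72-fold lower, 1.01 to 8.48), and Kyat3 had 32 and 14 reads (2.33-fold lower, 1.21 to 4.72). Slc3a2 and Wars had the most reads of the list. Slc3a2 encodes the subunit shared by amino acid carriers and was at 1010 and 858 CPM, and Wars, the tryptophanyl-tRNA synthetase gene, was at 51.7 and 45.8 CPM. Slc7a5, the carrier subunit that takes up tryptophan and kynurenine, was at 53.8 and 39.1 CPM. Maoa and Tph1 are also genes of gut epithelium, whose markers were higher in Exon2KO as given above, and the part of those cells was not tested.

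Tiparp belongs to the PARP family, many but not all of whose members attach ADP-ribose to proteins. Of 14 genes listed as PARP relatives of Tiparp and hydrolases, all passed the read minimum and 5 had a log2 ratio above 0. The median was -0.15, 0 were at least 2-fold higher and 1 was lower. The last was Parp8, with 202 reads in WT and 87 in Exon2KO, 2.37-fold lower (1.83 to 3.08). Zc3hav1, which encodes the antiviral protein ZAP, had the most reads of the list and was at 335 and 300 CPM. Parp14 was at 55.6 and 57.3 CPM, a ratio of 1.03 (0.939 to 1.13). Parp3, with 396 and 202 reads, was 1.997-fold lower (1.68 to 2.38), and Macrod2, with 17 and 34 reads, had a ratio of 1.96.

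Of the 6 pathway lists, the widest range of ratios was in T cell genes. Their expression is known to respond to AHR or to mark the cells that depend on it. This list of 18 genes was chosen with earlier results of these data known. Its counts and its rank among the lists can follow from that choice and describe these libraries only. All 18 passed the read minimum, and the median log2 ratio was 1.15. In Exon2KO 12 were at least 2-fold higher and 2 lower, beside 9.38% and 8.14% of all genes tested. Il17a and Il17f were the highest, at 5.94 and 5.40. Ccl20, which encodes the ligand of the chemokine receptor CCR6, had 1031 WT reads against 16679 from Exon2KO, a ratio of 15.9 with a lower limit of 14.9. The IL-1 receptor gene Il1r1, which Th17 cells carry, had 164 and 824 reads (4.93, lower limit 4.17), and Il22, a classical AHR-dependent cytokine gene, had 45 and 269 (5.87, lower limit 4.27).

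Ikzf3, which encodes Aiolos and is induced by AHR in Th17 cells, had 4179 and 8987 reads, a ratio of 2.11. The ratios of Il23r and Il10 were 3.53 and 2.74, and Maf and Ccr6 stood at 2.04 and 2.05 with intervals that reached below 2. Il21 rested on 2 and 13 reads (6.38, lower limit 1.44). Gzmb, the granzyme B gene with the most reads here, was at 2772 and 3981 CPM, a ratio of 1.44. Asb2 and Entpd1, which encodes the ectonucleotidase CD39, had ratios of 1.07 (1.01 to 1.14) and 1.00 (0.867 to 1.161).

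The 2 genes of the list that were at least 2-fold lower were Itgae and Kit. Itgae, which encodes the integrin CD103 that holds T cells at the epithelium, had 1926 reads in WT and 312 in Exon2KO, 6.29-fold lower (5.58 to 7.11). Kit, a receptor tyrosine kinase gene that AHR maintains in innate lymphoid cells, had 149 and 53 reads, 2.86-fold lower (2.08 to 3.996). Gpr15, a colon-homing receptor gene bound by AHR in T cells, had 1486 and 831 reads, or 94.7 and 52.0 CPM. It was 1.82-fold lower (1.67 to 1.99), short of the 2-fold threshold, while Ahr was 1.39 times as high.

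Markers of innate lymphoid and gamma-delta T cells, which carry AHR and many of the same genes, moved with this list. Of their 8 markers, 5 were at least 2-fold higher and 1 lower, and the summed level was 251 CPM in WT and 400 CPM in Exon2KO. Kit stands in both lists. Tcrg-C1 had 123 and 1034 reads and Ncr1, a receptor gene of innate cells, 0 and 10, while Trdc, from which the delta chain's constant part is read, stood at 14 and 13. The part of these cells in the T cell genes above, Ccl20 among them, and in the levels of Ahr, was not tested. Nor was that of epithelial cells, whose summed markers were higher in Exon2KO.

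**Figure D3:**
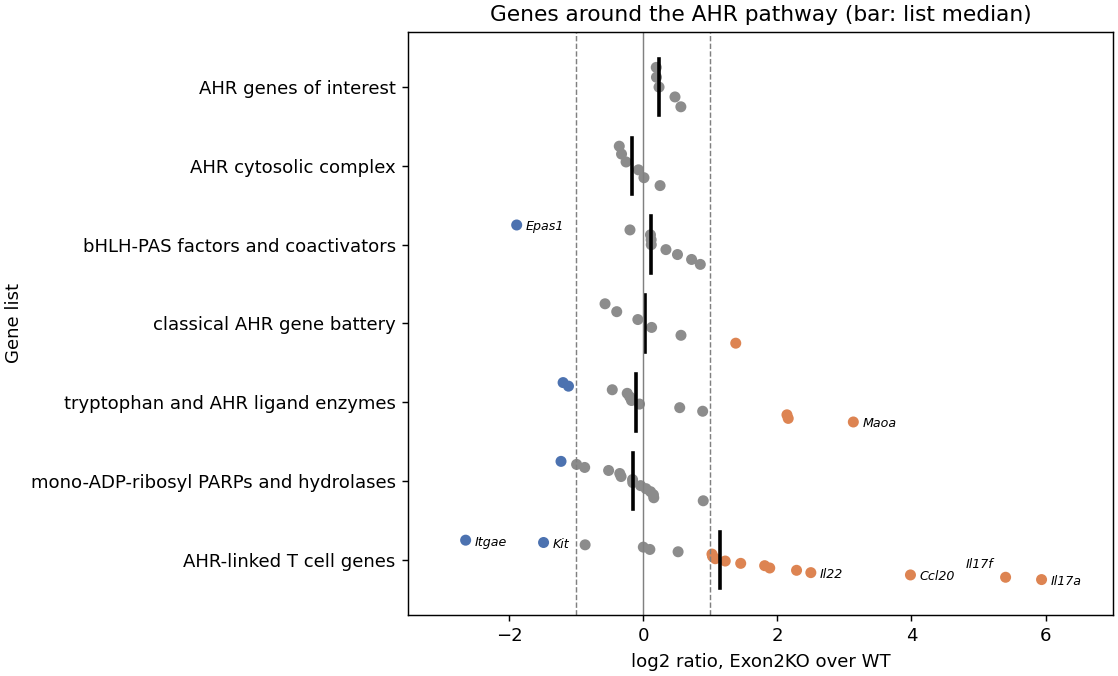
Log2 ratio of Exon2KO over WT for each gene with at least 10 reads in 7 lists around the AHR pathway, with the list median as a black bar and dashed lines at a 2-fold difference (orange higher, blue lower). The AHR genes at the top lie between 0.20 and 0.56, and the AHR-linked T cell genes at the bottom run from -2.64 (Itgae) to 5.94 (Il17a). The lists were chosen with earlier results of these data known.

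**Figure D4:**
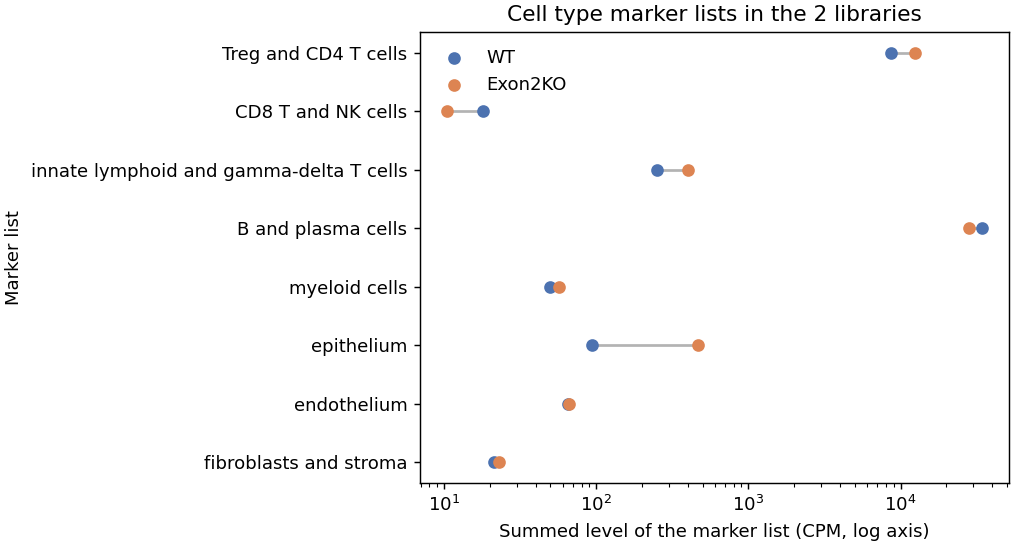
Summed level of 8 cell type marker lists in the WT and Exon2KO libraries, in CPM on a log axis. The epithelial list shows the widest gap, 94.3 against 468 CPM, while the endothelial sum was 65.6 and 66.6 CPM and the B and plasma cell sum was the highest in both libraries.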

How the data were processed

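RNA came from a column kit and entered an NEBNext Ultra library preparation, per the labels' protocols. The submitters' processing notes name HISAT2 2.0.5, StringTie 1.3.3b, featureCounts 1.5.0-p3, DESeq2 1.16.1 and mm10, with no role or order. Raw counts of reads for each gene were deposited by the authors, with FPKM (reads per gene length and library size). They also deposited a scaled count signal, which was not analysed, and a log2 fold change with p-values, whose tool is not stated per the file headers. Those p-values lay within 1% of what edgeR's exact test gives for a presumed coefficient of variation of 0.2 for 100% of 22447 genes.

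Counts were scaled with TMM (edgeR 4.0.16, R 4.3.3). With 1 library per group no test was run, since edgeR's quasi-likelihood test needs replicates. The log2 ratio (Exon2KO over WT, prior count 2) was taken for genes that had 10 reads or more in all, and a difference was counted from 2-fold. Ratios printed as folds are of CPM without the prior count. Ratios have 95% Clopper-Pearson limits, exact Poisson intervals for levels and exact conditional odds ratios for pairs of genes. A count of 0 was replaced by 3 reads for a bound. Without molecular identifiers, reads are not independent molecules. The ratio and its interval were tested on simulated data. Coordinates are 1-based on GRCm38, as deposited, and 5 of the 6 are identical in GENCODE M21; Cyp1b1 spans 79701537 to 79715061 there. Promoter windows came from RefSeq (GRCm38.p6), with 5 of 6 members matched and Ahr not. Python 3.11.15, scipy 1.17.1, pandas 2.3.3 and matplotlib 3.10.9 were used.

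The members, the 6 pathway lists and the 8 marker lists were chosen with earlier results of these data known. Named are the members, the genes of each pathway list that differ by 2-fold and the 2 with the most reads, and the 3 nearest genes by FPKM; other genes were named after their values were seen, and some genes that the rule takes are not reported here. Alternatives in scaling, read minimum, fold threshold and prior count were tried.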

Additional observations from a re-analysis of the deposited data

How the results depend on the processing

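The log2 ratios of the 6 AHR genes were recomputed with 4 other scalings and, except for Cyp1a1, which is a bound, with prior counts of 0.5 and 5 and from the deposited FPKM. All 39 values were above 0, and 38 lay within the counting interval of the value given in the report. The other was Tiparp with total counts, at 0.34 in place of 0.24. Total counts moved the median log2 ratio of all genes from 0.0035 to 0.108, and Tiparp moved with it. Ahr ranged from 0.47 to 0.58, Ahrr from 0.19 to 0.30, Arnt from 0.20 to 0.30, Cyp1b1 from 0.43 to 0.72 and the bound of Cyp1a1 from 1.39 to 1.49. The background counts were 1628 genes at least 2-fold higher and 1413 lower. Without a read minimum they were 2643 and 2844 of 24333 genes (22.5%), and with at least 50 reads 649 and 685 of 12730 (10.5%), so the share past 2-fold depended on the read minimum as well as the number of genes tested. A threshold of 1.5-fold gave 2922 and 2647, and one of 4-fold 499 and 408. The other scalings and prior counts left both counts within 1.5 times. Depth limits Cyp1a1 and Cyp1b1 to wide intervals or a bound. No paired analysis was possible because each genotype has 1 library, so no library could be left out either.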
